A study of Mus musculus with 2 samples.

Results

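The uppermost and the lowermost tissue of 2 mouse skin sections was compared by spatial transcriptomics. A Visium slide carries a lattice of barcoded spots, and each captured molecule, counted once by its unique molecular identifier (UMI), belongs to a gene and to a spot. In every array column with at least 5 spots over tissue, the 2 spots nearest to the upper edge of the image were taken as surface and the 2 nearest to the lower edge as deep. These were 1100 of the 2263 tissue spots of both sections, namely 330 surface and 330 deep spots from 165 of 216 columns with tissue in the S1pr2 f/f section, and 220 and 220 from 110 of 205 columns in the S1pr2 f/f K14-Cre section. The spots between them in the same columns are called middle, 456 and 200 spots. Both mice were 8 weeks old, carried loxP-flanked (floxed) *S1pr2* alleles and received 62.5 mg of 5% imiquimod (IMQ) cream on the depilated back each day for 7 days, so every value comes from inflamed skin and no untreated section entered. The S1pr2 f/f K14-Cre mouse carried in addition Cre recombinase under the keratin 14 promoter. This promoter acts in the basal layer of the epidermis and in other keratin 14-positive epithelium. By design *S1pr2* is thus left in dermis, fat and muscle. Each genotype was 1 section of 1 mouse, and genotype, animal, section and library cannot be told apart.

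The selected spots held 1340791 surface, 1832966 middle and 1273899 deep UMIs in the S1pr2 f/f section and 602768, 528617 and 721487 in the K14-Cre section, with medians per spot of 2652.5, 3411 and 3636 and of 1935.5, 2167 and 2716. Levels are given as CPM, the UMIs of a gene per 1000000 UMIs of the same region, and ratios as log2 of surface over deep CPM, with 0.5 UMIs added to each count. Their 95% intervals are conditional binomial and cover counting error only. Since a spot is wider than a cell and a level is a share of all UMIs, fewer cells of a type and less RNA per cell cannot be told apart. Sets of 3 UMI counts or CPM values below are given in the order surface, middle and deep, and pairs of log2 ratios in the order S1pr2 f/f and K14-Cre, so that a ratio above 0 means a higher level at the surface. The targeted gene, *S1pr2*, had 20, 68 and 45 UMIs in the S1pr2 f/f section and 9, 8 and 11 in the K14-Cre section, or 14.9, 37.1 and 35.3 CPM and 14.9, 15.1 and 15.2 CPM. These counts are too low to check the deletion at the surface, or to check that the gene is left in the tissue below. The lower middle and deep levels of the K14-Cre section have no replicate. Whether the probes lie in the deleted part is not given in the sources used here.

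Skin is layered, and the layers differ in their transcripts. Basal keratinocytes, which express keratins 5 and 14 and divide, give rise to suprabasal cells with keratins 1 and 10, and these finally cross-link loricrin, involucrin, small proline-rich (SPRR) and late cornified envelope (LCE) proteins into the cornified envelope and secrete the lipids that seal the barrier. Below lie the collagen-rich dermis with vessels, nerves and immune cells, a layer of fat and, in the mouse, the panniculus carnosus, a thin sheet of fast skeletal muscle under the skin. IMQ, an agonist of Toll-like receptor 7 (TLR7), thickens the epidermis and induces the wound-type keratins 6, 16 and 17 together with S100 proteins and antimicrobial peptides.

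The marker genes set the surface spots apart from the deep spots in nearly every column, which does not show that the deep spots were the deepest tissue. The UMIs of 3 keratinocyte lists (cornified envelope, suprabasal and basal) made up a larger share of the surface than of the deep spots in 163 of 164 columns of the S1pr2 f/f section with UMIs at both ends and in 109 of 110 columns of the K14-Cre section. Fast muscle genes made up a larger share of the deep spots in 160 and 109 of these columns. The lowermost spots were not muscle throughout. Both sections curved downward at the left end of the image. The columns were divided from left to right into 4 segments of nearly equal number. In segment 1, the deep spots of the S1pr2 f/f section were at 71377 CPM of the keratinocyte lists and 6688 CPM of the fast muscle list, against 21364 to 26126 and 82128 to 113785 CPM in the other segments. Keratinocyte transcripts were thus plentiful at both ends of the columns of this segment, and whether the section folds back there was not examined. Its middle spots were at 36296 CPM of the keratinocyte lists and 11018 CPM of the fast muscle list. The label deep is therefore not borne out in this segment. Its keratinocyte log2 ratio was 0.81, against 2.24 to 2.63 in the other segments. The segment enters every S1pr2 f/f ratio and middle level below that uses all columns. It held 1007295 of the 1832966 middle UMIs of this section. In the K14-Cre section, the deep spots of segments 2 and 3 lay partly in a strip of tissue below a gap, at 195505 and 182561 CPM of the fast muscle list. An interruption of the tissue occurred in 52 of the 165 and 31 of the 110 columns. Of the surface spots, 38 and 3 lay in isolated groups of fewer than 20 spots and held 0.0863% and 0.0572% of the surface UMIs. Of the deep spots these were 16 and 2, with 1.64% and 0.0608% of the deep UMIs. Columns just outside the limit looked like those just inside it. In the 32 columns of the S1pr2 f/f section with 4 spots, the keratinocyte lists were at 102556 CPM in the upper pair of spots and 31735 CPM in the lower pair, and in its 57 columns with 5 spots at 121132 and 30395 CPM. In the K14-Cre section the values were 46077 and 3778 CPM in 66 columns with 4 spots and 49597 and 2885 CPM in 53 columns with 5.

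**Figure D1:**
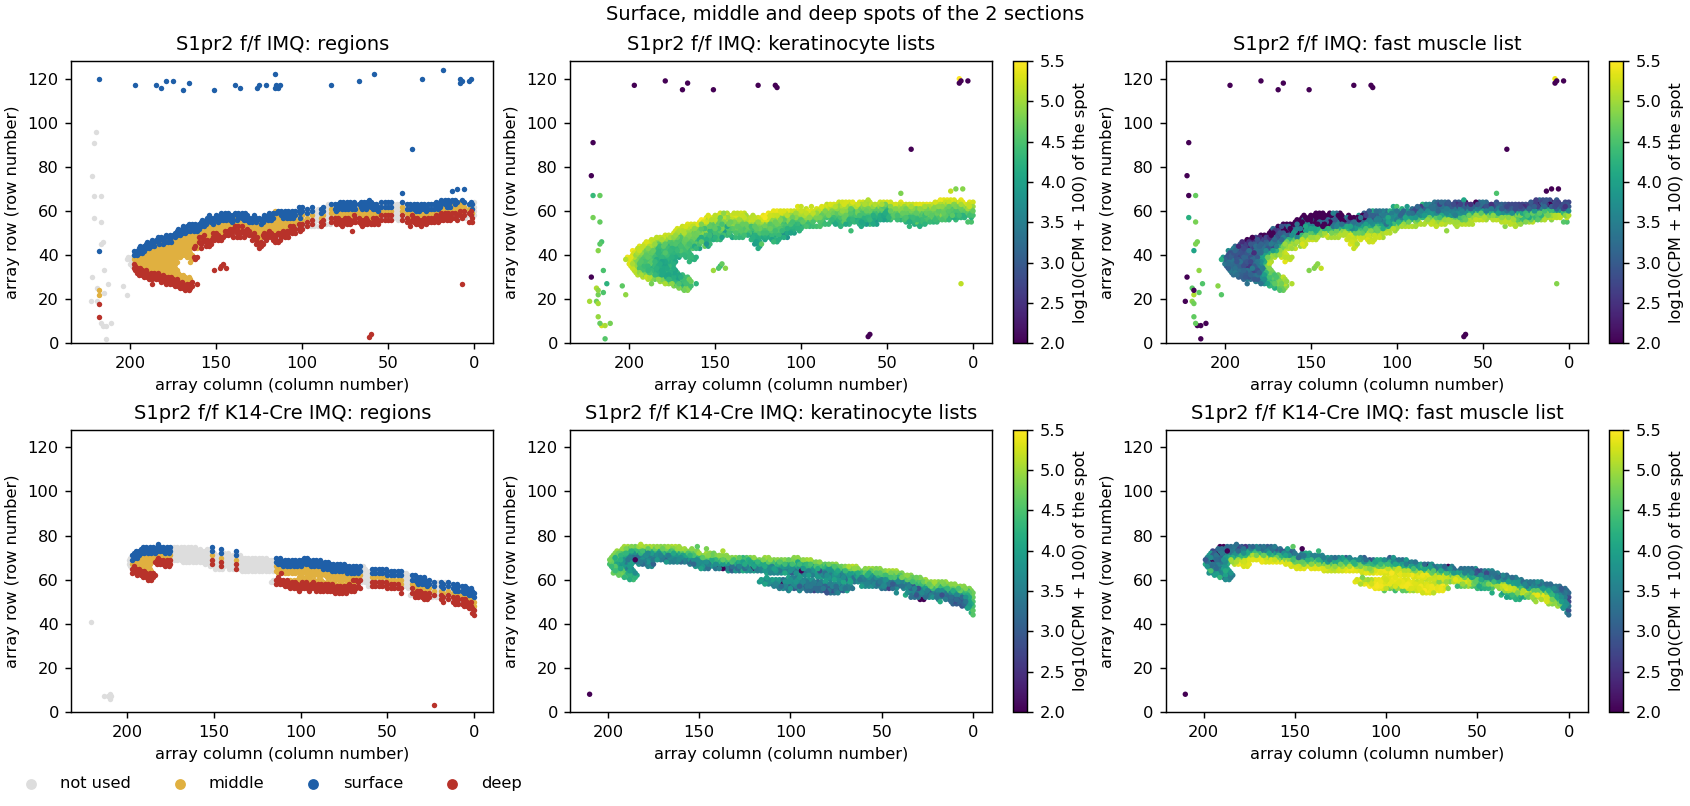
Tissue spots of the S1pr2 f/f section (top) and the K14-Cre section (bottom) by array column and array row, with the image's upper edge at the top, coloured by region (left) and by the CPM of the keratinocyte lists (middle) and of the fast muscle list (right) in each spot, on a log10 scale after adding 100 CPM. Keratinocyte transcripts line the upper edge and follow it around the bent left end, and muscle transcripts line the lower edge, in the K14-Cre section also in a strip below a gap. Isolated surface spots lie far above the S1pr2 f/f section.

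Surface was tested against deep for 9610 genes with at least 20 UMIs over the surface and deep spots of each section. edgeR's quasi-likelihood test was run on the 4 sums with section as a block. It tests a ratio common to both sections and not whether each section has it, so a gene nearly flat in 1 section can be called. The test rests on n = 2 mice of different genotype and 1 residual degree of freedom, with the spread shared among genes. A small p-value therefore does not by itself show that the sections are alike for that gene. At an adjusted p under 0.05, 889 genes (9.25% of those tested) were higher at the surface and 981 (10.2%) in the deep spots, and 2891 had an unadjusted p under 0.05. DESeq2 called 471 and 503. By the ratios alone, 549 genes (5.71%) were at least 2-fold higher at the surface in both sections and 981 (10.2%) at least 2-fold higher in the deep spots. These ratios come from the same UMI sums as the test. Of the genes called, 517 of the 889 and 823 of the 981 also passed 2-fold in both sections. Since both measures use the same counts, this overlap is no separate support. The count of genes called at the surface depended on the columns. In the central columns alone (with 25% of the columns left out at either end, an alternative added after the data had been seen), 209 and 298 of 4754 genes were called. Across genes the log2 ratios of the sections correlated with r = 0.671 over 9610 genes, which share the probe set and the layered tissue and are not independent replicates. The median ratio of all genes tested was −0.24 in the S1pr2 f/f section and 0.13 in the K14-Cre section. The 16 fast muscle genes alone took 145556 CPM of the deep spots of the latter, and scaling by the trimmed mean of M values (TMM), as used in the test, moved every ratio by 0.33 and −0.18, to medians of 0.09 and −0.05.

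**Figure D2:**
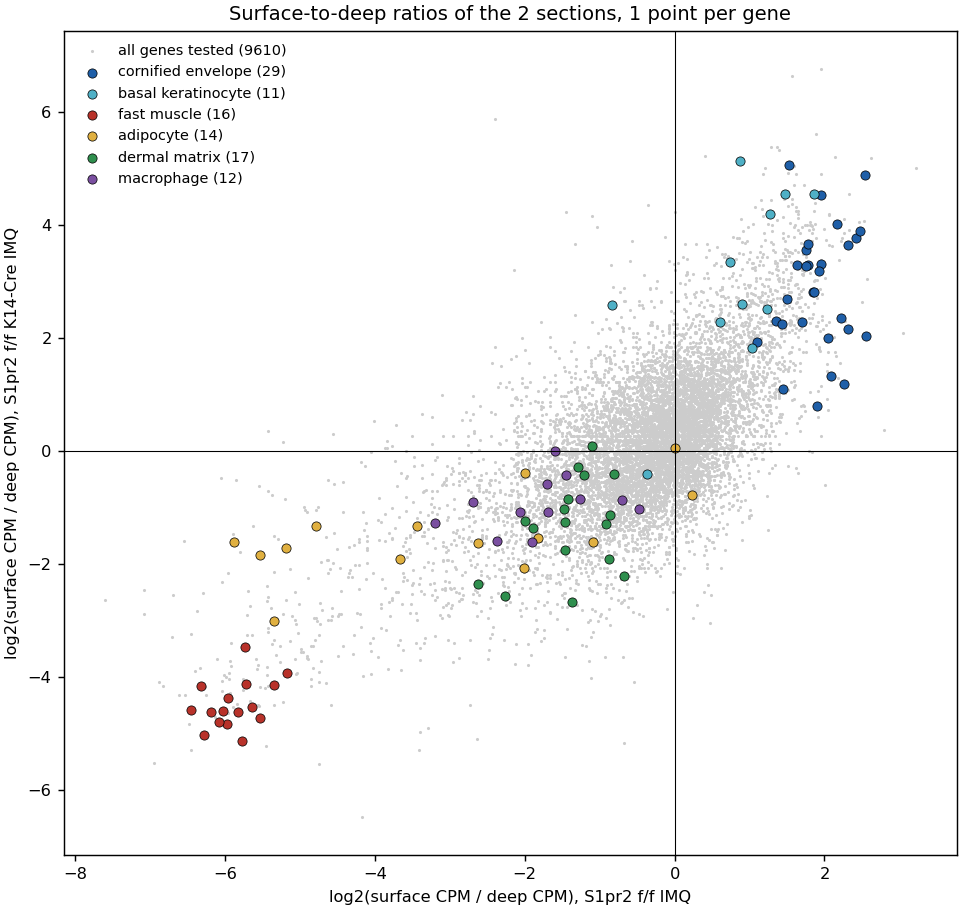
Log2 surface over deep CPM of 9610 genes in the S1pr2 f/f section (x axis) and the K14-Cre section (y axis), 1 point per gene, with the members of 6 gene lists in colour and their number tested in the key. Cornified envelope genes lie in the upper right, fast muscle genes in the lower left with ratios of −6.46 to −5.17 and −5.13 to −3.47, and dermal matrix genes between them.

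The 10 genes with the highest ratio at the surface in both sections, among those with at least 100 UMIs in each, were *Sprr2i*, *Arg1*, *Lce3b*, *Lce3a*, *Krt6b*, *Sprr1b*, *Sprr1a*, *S100a8*, *Defb1* and *2310046K23Rik*. *Sprr2i*, *Sprr1a* and *Sprr1b* encode small proline-rich precursors of the cornified envelope, and *Lce3a* and *Lce3b* late envelope proteins. *Sprr2i* was at 1631, 405 and 265 CPM in the S1pr2 f/f section and at 1380.3, 79.5 and 37.4 CPM in the K14-Cre section. Its log2 ratios were 2.62 (95% interval 2.45 to 2.79) and 5.18 (4.65 to 5.82) (edgeR adjusted p = 1.08e-08), the highest of the 10 by the smaller of the sections' values. *Krt6b* was at 15362, 4158 and 2793 CPM in the S1pr2 f/f section and at 4942, 516 and 298 CPM in the K14-Cre section, with log2 ratios of 2.46 and 4.05 (edgeR adjusted p = 1.15e-04). *Krt6b* encodes a keratin of hyperproliferative epidermis. *S100a8* was at 11897, 3101 and 2475 CPM in the S1pr2 f/f section and at 4139, 524 and 238 CPM in the K14-Cre section, and the ratios were 2.26 and 4.11 (edgeR adjusted p = 1.09e-04). *S100a8* encodes a subunit of calprotectin, a calcium- and metal-binding inflammatory protein. *Arg1*, the arginase that converts arginine to ornithine, had 714, 270 and 114 UMIs in the S1pr2 f/f section and 107, 19 and 15 in the K14-Cre section, with ratios of 2.57 and 3.05 (edgeR adjusted p = 1.33e-07). *Defb1*, an antimicrobial beta-defensin, had ratios of 2.23 and 3.76. In all 10 genes the middle level lay below the surface level in both sections, and the surface was higher by more than 4-fold in each section. Since SPRR, LCE and type II keratin genes have close paralogs, the split of counts within these families is uncertain.

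At the other end, 9 of the 10 genes with the highest ratio in the deep spots were *Myh4*, *Atp2a1*, *Ttn*, *Casq1*, *Mylpf*, *Synpo2*, *Pygm*, *Actn2* and *Pvalb*. Most of them build or feed the muscle fibre. *Myh4* encodes the myosin heavy chain of IIB fibres, *Ttn* the giant spring protein titin, *Atp2a1* the calcium pump and *Casq1* the calcium buffer of the sarcoplasmic reticulum, *Mylpf* a fast myosin light chain, *Actn2* the Z-disc protein alpha-actinin, *Pygm* muscle glycogen phosphorylase and *Pvalb* the calcium buffer parvalbumin. *Myh4* was at 109, 1010.4 and 5989 CPM in the S1pr2 f/f section and at 745, 15007 and 26074 CPM in the K14-Cre section. Its ratios were −5.78 (95% interval −6.03 to −5.54) and −5.13 (−5.27 to −4.99) (edgeR adjusted p = 8.24e-09). *Ttn* was at 70.9, 1052 and 6344 CPM in the S1pr2 f/f section and at 269, 4695 and 7687 CPM in the K14-Cre section, with ratios of −6.48 and −4.83 (edgeR adjusted p = 5.02e-11). *Synpo2*, an actin-binding protein of the Z-disc and of smooth muscle, had 17, 79 and 444 UMIs in the S1pr2 f/f section and 2, 108 and 139 in the K14-Cre section, and its ratios of −4.74 and −5.54 carry the widest interval of the 9 in the K14-Cre section, from −8.92 to −3.98. For all 9 genes the log2 ratio was below −4 in both sections, and the middle level lay between the ends except that of *Synpo2* in the K14-Cre section, which was highest in the middle.

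**Figure D3:**
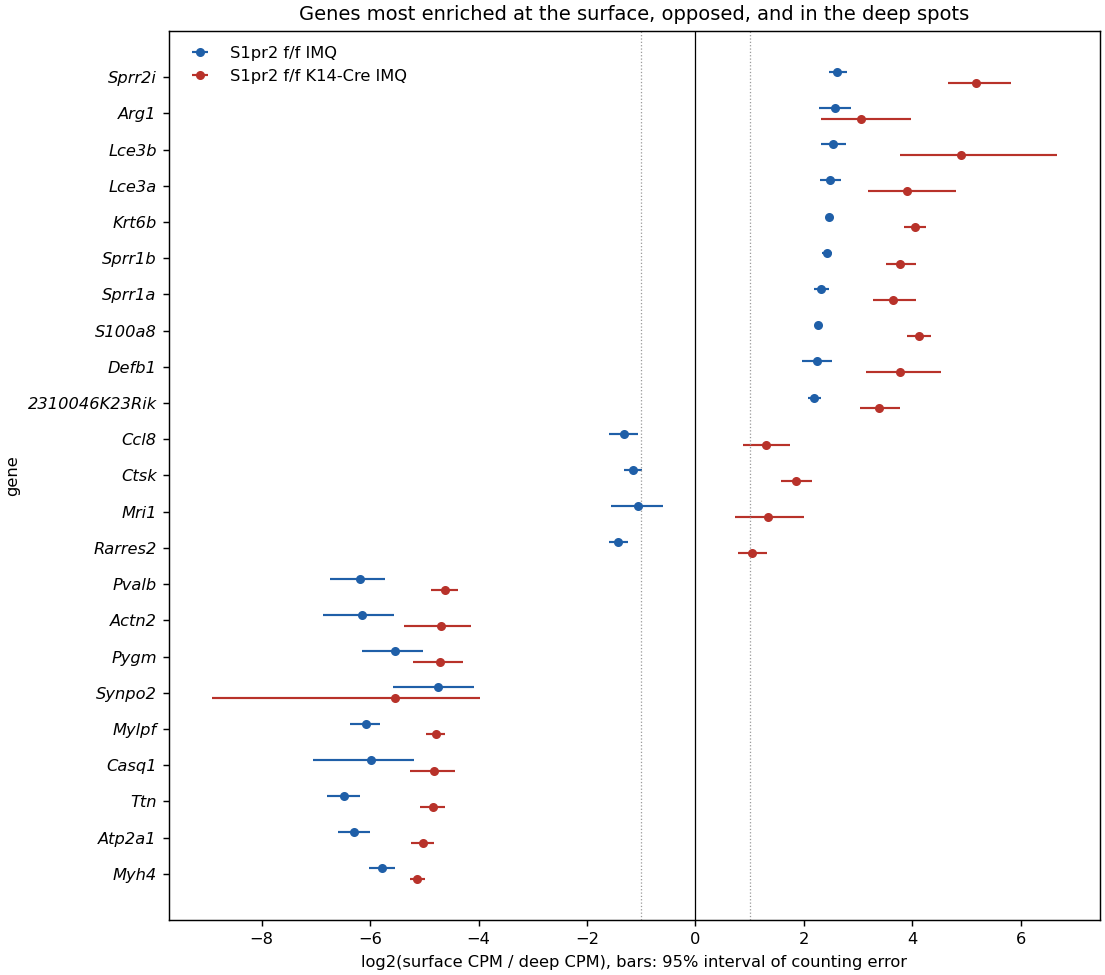
Log2 surface over deep CPM of the 10 genes highest at the surface (top), 4 genes with opposed gradients (centre) and 9 of the 10 genes highest in the deep spots (bottom), in the S1pr2 f/f (blue) and the K14-Cre section (red). Bars are 95% intervals of counting error and dotted lines mark 2-fold. The surface genes sit between 2.19 and 2.62 in the S1pr2 f/f section and between 3.05 and 5.18 in the K14-Cre section.

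Promoter sequences are shown for 3 genes from either end, chosen because their windows hold the letters searched. The 250 bases before the transcription start were read from RefSeq promoters of GRCm38.p6, the assembly that mm10 names, and searched on both strands. The patterns were TGANTCA, which includes the core of AP-1 sites, TATAAA, the TATA box, and CTANNNNTAG, which includes the core of MEF2 sites. N stands for any base, so the first and the last also match sequences that are not such cores. Of the genes highest at the surface, 6 had an entry, and of those highest in the deep spots 9. *Sprr2i* (chr3:92407741-92407990 on the plus strand), *Sprr1b* (chr3:92438780-92439029 on the minus strand) and *Sprr1a* (chr3:92485882-92486131 on the minus strand) each held TGANTCA and TATAAA. They are printed with the matches in capitals.
Sprr2i: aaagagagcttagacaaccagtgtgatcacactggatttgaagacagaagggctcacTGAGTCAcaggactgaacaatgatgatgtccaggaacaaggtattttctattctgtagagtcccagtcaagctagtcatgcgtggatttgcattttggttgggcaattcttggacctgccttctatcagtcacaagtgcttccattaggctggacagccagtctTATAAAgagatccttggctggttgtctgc
Sprr1b: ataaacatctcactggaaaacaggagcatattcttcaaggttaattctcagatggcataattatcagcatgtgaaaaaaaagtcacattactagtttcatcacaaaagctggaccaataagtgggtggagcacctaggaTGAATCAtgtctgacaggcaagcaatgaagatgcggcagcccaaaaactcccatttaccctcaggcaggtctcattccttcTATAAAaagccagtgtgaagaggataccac
Sprr1a: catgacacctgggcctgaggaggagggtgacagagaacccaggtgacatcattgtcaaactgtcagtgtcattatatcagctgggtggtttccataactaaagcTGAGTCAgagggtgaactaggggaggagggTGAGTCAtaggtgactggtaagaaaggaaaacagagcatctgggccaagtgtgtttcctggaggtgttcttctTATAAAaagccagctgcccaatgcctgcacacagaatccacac
Of the deep genes, *Ttn* (chr2:76982548-76982797 on the minus strand) and *Synpo2* (chr3:123236150-123236399 on the minus strand) held CTANNNNTAG, and *Myh4* (chr11:67237562-67237811 on the plus strand) held TATAAA 3 times. In *Synpo2* the matches of both overlap.
Ttn: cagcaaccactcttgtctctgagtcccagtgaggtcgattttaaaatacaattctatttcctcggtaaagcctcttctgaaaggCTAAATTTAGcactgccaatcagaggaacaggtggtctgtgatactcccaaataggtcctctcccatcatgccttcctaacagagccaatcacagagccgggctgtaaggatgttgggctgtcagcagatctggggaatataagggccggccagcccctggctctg
Synpo2: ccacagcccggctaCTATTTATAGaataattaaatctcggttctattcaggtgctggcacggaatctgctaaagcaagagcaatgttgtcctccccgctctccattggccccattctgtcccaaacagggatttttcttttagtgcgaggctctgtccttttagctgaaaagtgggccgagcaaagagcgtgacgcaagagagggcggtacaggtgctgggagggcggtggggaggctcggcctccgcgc
Myh4: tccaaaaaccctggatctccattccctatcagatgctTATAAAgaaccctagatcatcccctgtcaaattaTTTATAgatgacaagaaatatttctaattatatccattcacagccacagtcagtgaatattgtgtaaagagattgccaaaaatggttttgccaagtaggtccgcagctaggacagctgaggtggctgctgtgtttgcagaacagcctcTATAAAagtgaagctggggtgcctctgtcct
Among genes with an entry, TGANTCA occurred in 12.8% of the 656 called at the surface, 8.71% of the 735 called in the deep spots, 6.08% of the 7577 tested and 7.82% of all 27025. CTANNNNTAG occurred in 1.98%, 6.94%, 3.33% and 3.7% of these, and TATAAA in 11%, 13.1%, 8.38% and 14.3%. A match of letters is a description of the window and no evidence of binding.

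Most keratinocyte genes were higher at the surface, in each of the lists from the basal cell to the cornified envelope. For comparison with this and the following lists, 9.25% of all genes tested were called at the surface and 10.2% in the deep spots. Past 2-fold in both sections were 5.71% and 10.2%. All lists were chosen with earlier results of these data known. Of the 12 basal genes, 11 were measured, that is, had the minimum of 20 UMIs in each section, and 9 were called higher at the surface, with a median log2 ratio of 0.91 in the S1pr2 f/f section and 2.60 in the K14-Cre section. *Krt14* was at 28027, 11715 and 7704 CPM in the S1pr2 f/f section and at 17690.1, 2169.8 and 754 CPM in the K14-Cre section, with ratios of 1.86 (95% interval 1.83 to 1.90) and 4.55 (4.43 to 4.68) (edgeR adjusted p = 0.00106). *Col17a1*, the hemidesmosomal collagen that anchors basal cells, had the largest difference between the sections of this list, with ratios of 0.87 and 5.14 and 510, 412 and 265 UMIs in the S1pr2 f/f section and 132, 34 and 4 in the K14-Cre section. *Trp63*, the transcription factor of the basal state, and *Itga6*, an integrin of the hemidesmosome, had ratios of 0.91 and 2.60 and of 1.03 and 1.82. The exceptions were *Dst*, a cytoskeletal linker also made by muscle and nerve, at −0.37 and −0.40 (edgeR adjusted p = 0.738), and *Krt15*, a keratin of basal and hair follicle bulge cells. *Krt15* had 232, 747 and 393 UMIs in the S1pr2 f/f section and 113, 137 and 22 in the K14-Cre section, with ratios of −0.83 and 2.59 (edgeR adjusted p = 0.242), and was highest in the middle spots of both sections. DESeq2 did not call *Col17a1*, and *Krt14* lost its call without TMM.

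Of the 14 suprabasal genes all were measured, 13 were called higher at the surface and all 14 passed 2-fold in both sections, with a median of 1.66 in the S1pr2 f/f section and 2.97 in the K14-Cre section. Over all genes tested the shares were 9.25% called and 5.71% past 2-fold. Summed, this list was at 53380.4, 19098 and 18010.1 CPM in the S1pr2 f/f section and 14322, 2068 and 1389 CPM in the K14-Cre section. *Krtdap*, a secreted marker of keratinocyte differentiation, had ratios of 1.87 and 4.03 (edgeR adjusted p = 7.37e-04), and *Dsp*, the desmosomal linker desmoplakin, of 1.67 and 3.86 (edgeR adjusted p = 1.48e-04). *Krt10*, the suprabasal keratin, missed the test at ratios of 1.25 and 1.79 (edgeR adjusted p = 0.0785). The 10 barrier lipid genes measured had a median of 1.56 in the S1pr2 f/f section and 2.79 in the K14-Cre section, and 9 were called. They include *Abca12*, the lipid transporter of lamellar granules, at 1.85 and 3.93, and *Cers3*, the ceramide synthase of very long chains, at 1.61 and 3.55. *Ugcg*, the glucosylceramide synthase, was the exception at 0.62 and 0.84 (edgeR adjusted p = 0.165).

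Nearly all cornified envelope genes were higher at the surface. Of 39 listed, 33 are in the files and 29 were measured. Of these, 28 were called higher at the surface and 28 passed 2-fold in both sections, with a median of 1.90 in the S1pr2 f/f section and 2.82 in the K14-Cre section. Over all genes tested the shares were 9.25% called and 5.71% past 2-fold. Summed, the list was at 36462, 10851 and 9724 CPM in the S1pr2 f/f section and 9219, 1303 and 967 CPM in the K14-Cre section. *Tgm1*, the transglutaminase that cross-links the envelope, had ratios of 1.52 and 5.06 (edgeR adjusted p = 6.93e-07, not called by DESeq2), *Ivl*, involucrin, of 1.75 and 3.55 (edgeR adjusted p = 1.73e-06), and *Lor*, loricrin, of 1.50 and 2.69 (edgeR adjusted p = 0.00202). The gene not called was *Flg*, the filament-aggregating protein of the granular layer, at 1.44 and 1.11 (edgeR adjusted p = 0.107). *Flg* was at 6242, 1589 and 2298 CPM in the S1pr2 f/f section and at 186, 90.8 and 85.9 CPM in the K14-Cre section. The *Lce1* genes *Lce1a2*, *Lce1c*, *Lce1d* and *Lce1f* had ratios of 1.85 and 2.82, of 1.90 and 0.79, of 2.22 and 2.35 and of 2.32 and 2.16. *Lce1c* had 19, 1 and 13 UMIs in the K14-Cre section. *Lce3a*, *Lce3b* and *Lce3c* had ratios of 2.48 and 3.89, of 2.53 and 4.89 and of 2.16 and 4.02. No contrast between the families is read from these members.

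Genes of psoriasis-like keratinocytes followed the same gradient. Of 18 listed, 14 were measured, 12 were called higher at the surface and 13 passed 2-fold in both sections, with a median of 1.67 in the S1pr2 f/f section and 3.34 in the K14-Cre section. Over all genes tested the shares were 9.25% called and 5.71% past 2-fold. The stress keratins *Krt16* and *Krt17* had ratios of 1.90 and 3.02 and of 1.61 and 3.99. *Defb3*, an inducible beta-defensin, had 420, 175 and 69 UMIs in the S1pr2 f/f section and 77, 19 and 5 in the K14-Cre section and ratios of 2.52 and 4.08 (edgeR adjusted p = 1.43e-09). *Slpi*, a secreted inhibitor of neutrophil proteases, had 542, 369 and 170 UMIs in the S1pr2 f/f section and 578, 34 and 26 in the K14-Cre section, with ratios of 1.60 and 4.71 (edgeR adjusted p = 2.67e-07). The interleukin 36 family members *Il1f6* and *Il1f9*, which encode IL-36 alpha and IL-36 gamma, had ratios of 1.58 and 1.56 and of 1.65 and 3.53, and *Il1f5*, which encodes their receptor antagonist, of 1.55 and 3.16. *Lcn2*, an iron-sequestering lipocalin, was not called at 0.12 and 1.51 (edgeR adjusted p = 0.172), and its level in the S1pr2 f/f section was highest in the middle. The calls of *Krt16*, *Krt6b* and *Krtdap* were lost without TMM and in the central columns.

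Fewer of the proliferation genes passed the test. Of 14 cell cycle genes, 11 were measured and 5 were called higher at the surface, with a median of 0.49 in the S1pr2 f/f section and 0.77 in the K14-Cre section. Those called were *Mki67*, the proliferation antigen Ki-67, at 1.16 and 2.00 (edgeR adjusted p = 0.00148), *Birc5*, survivin of the chromosomal passenger complex, at 1.07 and 2.89 (edgeR adjusted p = 1.14e-04), *Ube2c*, *Tyms* and *Cdk1*, of which the last 3 were not called by DESeq2. The minichromosome maintenance genes *Mcm2*, *Mcm3*, *Mcm5* and *Mcm6* of replication licensing were not called, with ratios from −0.13 to 0.49 and from 0.35 to 0.77. *Mki67* had 332, 369 and 141 UMIs in the S1pr2 f/f section and 128, 52 and 38 in the K14-Cre section. Of the skin appendages, 4 of 8 sebaceous genes measured were called higher at the surface and 1 in the deep spots, against 9.25% and 10.2% of all genes tested. At least 2-fold in both sections, 1 was higher at the surface and 1 in the deep spots. Summed, the list was at 1569, 2415 and 1421 CPM in the S1pr2 f/f section and 1956, 1426 and 1089 CPM in the K14-Cre section. In the S1pr2 f/f section 7 of the 8, *Soat1* among them, were highest in the middle, and in the K14-Cre section 0. *Awat1*, a wax synthase of sebocytes, had ratios of 1.63 and 4.90 (edgeR adjusted p = 1.78e-07) and *Soat1*, which esterifies cholesterol, of 0.76 and 2.93 (edgeR adjusted p = 6.47e-04), while *Scd1*, a fatty acid desaturase also made by fat cells, was at −0.43 and 0.79 (edgeR adjusted p = 0.785). The fatty acid desaturase gene *Fads2* had no UMI at the S1pr2 f/f surface and 23 in its deep spots, at least 8.07-fold higher there if a count of 0 is taken to allow 3, and 5 and 16 UMIs in the K14-Cre section. Of 16 hair follicle genes, *Msx2* and *Hoxc13* alone reached the minimum, with ratios of −0.46 and 1.29 and of −0.35 and 1.75, and edgeR and DESeq2 called neither, with none at an unadjusted p under 0.05.

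Fast muscle genes were higher in the deep spots of both sections. All 16 were measured, called and at least 2-fold higher there, against 10.2% of all genes tested by either measure. The median of the 16 was −5.89 in the S1pr2 f/f section and −4.59 in the K14-Cre section. Summed, they were at 1047, 12295 and 63287 CPM in the S1pr2 f/f section and 6344, 102587 and 145556 CPM in the K14-Cre section, and all 16 stayed called by DESeq2. *Acta1*, skeletal actin, had 391, 5670 and 19589 UMIs in the S1pr2 f/f section and 1122, 13657 and 23400 in the K14-Cre section and ratios of −5.72 and −4.12 (edgeR adjusted p = 7.09e-07), a call lost in the central columns. *Ckm*, muscle creatine kinase, and *Tnnt3*, fast troponin T, had ratios of −5.96 and −4.37 and of −6.33 and −4.16. Of 6 slow or oxidative fibre genes measured, 5 were called higher in the deep spots. *Myh2*, the myosin of IIA fibres, had ratios of −5.89 and −4.53 (edgeR adjusted p = 4.09e-16) and *Mb*, the oxygen store myoglobin, of −6.53 and −4.32 (edgeR adjusted p = 1.11e-16), whereas *Myh7*, the slow myosin, had 0, 5 and 3 UMIs in the S1pr2 f/f section and 15, 13 and 17 in the K14-Cre section and did not reach the minimum. *Atp2a2*, a calcium pump shared by slow muscle and keratinocytes, ran the opposite way at 0.85 and 1.86 (edgeR adjusted p = 0.0459), a call lost under most alternatives. Near-identical myosin, actin and troponin paralogs may exchange counts.

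Genes of developing or regenerating muscle were sparse and had most of their UMIs in the deep spots of the K14-Cre section. *Myh8*, perinatal myosin, had 0, 9 and 12 UMIs in the S1pr2 f/f section and 0, 35 and 297 in the K14-Cre section. *Myh3*, embryonic myosin, had 2, 6 and 10 UMIs in the S1pr2 f/f section and 9, 15 and 127 in the K14-Cre section, and *Myl4*, the embryonic light chain, 4, 14 and 8 UMIs in the S1pr2 f/f section and 10, 34 and 277 in the K14-Cre section. The regulator of myoblast differentiation *Myog* had 2, 11 and 9 UMIs in the S1pr2 f/f section and 26, 24 and 48 in the K14-Cre section. In the K14-Cre section *Myh8* was at least 82.7-fold higher in the deep spots, taking its surface count of 0 to allow 3. Of this list only *Ncam1*, a cell adhesion molecule of regenerating or denervated muscle and of nerve, had enough UMIs in both sections to be tested, with ratios of −0.47 and −2.89 (edgeR adjusted p = 0.013), a call lost without TMM and with DESeq2. Summed, the 10 genes of the list in the files were at 21.6, 61.6 and 65.9 CPM in the S1pr2 f/f section and 138, 319.7 and 1380.5 CPM in the K14-Cre section. The difference between the sections has no replicate.

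Energy metabolism was set against depth by 2 lists. For comparison, 9.25% of all genes tested were called at the surface and 10.2% in the deep spots. Of 15 oxidative phosphorylation genes measured, 5 were called higher in the deep spots and none at the surface, with a median of −0.48 in the S1pr2 f/f section and −0.90 in the K14-Cre section. The subunits made in muscle and brown fat led them. *Cox6a2*, *Cox7a1* and *Cox8b* of cytochrome oxidase had ratios of −6.04 and −4.24, of −5.58 and −3.68 and of −5.23 and −4.44, while the broadly expressed *Cox5b* was at −0.42 and 0.04 and the ATP synthase subunit gene *Atp5a1* at −0.18 and −0.03. Glycolysis genes went both ways, with 3 called at the surface and 4 in the deep spots of 13 measured. *Slc2a1*, the glucose transporter GLUT1, had 667, 587 and 259 UMIs in the S1pr2 f/f section and 556, 65 and 51 in the K14-Cre section. Its ratios were 1.29 and 3.69 (edgeR adjusted p = 2.86e-05). *Slc2a4*, the insulin-responsive transporter GLUT4 of muscle and fat, had ratios of −3.96 and −3.65 (edgeR adjusted p = 2.13e-12). The same held for isoenzymes. The liver-type phosphofructokinase *Pfkl* was at 1.45 and 3.18 and the muscle-type *Pfkm* at −4.85 and −4.15, and the phosphoglycerate mutases *Pgam1* and *Pgam2* were at 1.14 and 1.96 and at −5.37 and −4.11. All 6 of these transporter and isoenzyme genes were called by edgeR, and *Pgam1* lost its call without TMM. *Gapdh*, often used as a reference gene, had 8, 11 and 12 UMIs in the S1pr2 f/f section and 16, 8 and 12 in the K14-Cre section (edgeR adjusted p = 0.929). Counts this low are near the background given below, and neither the level nor the gradient of *Gapdh* is read from them. The list's median was −0.17 in the S1pr2 f/f section and −0.54 in the K14-Cre section, and with TMM it turned to 0.16 in the S1pr2 f/f section.

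Genes of fat and connective tissue that passed the test were higher in the deep than in the surface spots, where 10.2% of all genes tested were called higher deep. Of 14 adipocyte genes measured, 11 were called higher in the deep spots, with a median of −3.03 in the S1pr2 f/f section and −1.61 in the K14-Cre section. With 1 spot at each end, where 12 of them could be measured, the medians were −3.95 and −3.92. Summed, the adipocyte list was at 816, 4835 and 6057 CPM in the S1pr2 f/f section and 2537, 12489 and 12259 CPM in the K14-Cre section. Of its 14 genes, 4 and 7 were highest in the middle. In the K14-Cre section the middle was above the deep level in segments 1 and 4 and below it in segments 2 and 3. *Plin1*, which coats the lipid droplet, had 4, 247 and 198 UMIs in the S1pr2 f/f section and 16, 66 and 70 in the K14-Cre section and ratios of −5.54 and −1.84 (edgeR adjusted p = 1.53e-09). *Cfd*, the adipokine adipsin, had ratios of −5.19 and −1.72 (edgeR adjusted p = 6.52e-06, not called by DESeq2), and *Adipoq*, adiponectin, of −4.79 and −1.33 (edgeR adjusted p = 9.15e-07). *Dgat2* and *Acsl1*, enzymes of lipid synthesis that keratinocytes also use, were not called at 0.24 and −0.77 and at 0.01 and 0.06. Of 17 dermal matrix genes, all measured, 8 were called higher in the deep spots, with a median of −1.37 in the S1pr2 f/f section and −1.26 in the K14-Cre section. The K14-Cre value did not hold along the section. The summed list made up a larger share of the deep spots in 142 of 164 columns of the S1pr2 f/f section but in 58 of 110 columns of the K14-Cre section. Its log2 ratios in segments 1 to 4 of the K14-Cre section were −0.45, 0.43, −0.13 and −2.18, and in the central columns the medians were −1.05 and −0.30. The genes called were *Dpt*, *Eln*, *Postn*, *Bgn*, *Fbn1*, *Sparc*, *Col5a1* and *Col6a2*, of which the last pair fell short of 2-fold in the S1pr2 f/f section. In the central columns *Eln* was called and the other 7 were not. *Eln*, elastin, had ratios of −2.26 and −2.56 (edgeR adjusted p = 1.24e-05) and *Dpt*, dermatopontin, of −2.62 and −2.35 (edgeR adjusted p = 8.60e-05), whereas the main fibrillar collagens *Col1a1* and *Col3a1* were not called at −1.47 and −1.26 (edgeR adjusted p = 0.147) and at −1.43 and −0.85 (edgeR adjusted p = 0.288). Of 10 fascia fibroblast genes, 4 were called, among them *Pi16*, a marker of universal fibroblasts, at −2.80 and −2.15 (edgeR adjusted p = 1.92e-06).

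Of 8 smooth muscle genes measured, 7 were called higher in the deep spots, with a median of −2.62 in the S1pr2 f/f section and −1.82 in the K14-Cre section. DESeq2 called 4. *Acta2*, smooth muscle actin, was at −2.66 and −2.69 (edgeR adjusted p = 1.44e-06). Of 7 Schwann cell genes measured, 5 were not called, and *Pmp22*, which encodes a myelin protein of peripheral nerve, was called higher in the deep spots at −2.88 and −1.52. Of all genes tested, 10.2% were called higher in the deep spots, and nothing is read from the Schwann cell count. Of 10 endothelial genes measured, 6 were called higher in the deep spots, with a median of −2.03 in the S1pr2 f/f section and −0.95 in the K14-Cre section. DESeq2 called 2. In the K14-Cre section the summed list had a ratio of −0.70. It made up a larger share of the surface spots there in 35 of 110 columns, against 25 of 164 in the S1pr2 f/f section. The 6 include *Pecam1*, at −1.87 and −2.06, and *Esam*, an adhesion molecule of endothelial junctions, at −2.63 and −1.81. *Flt1*, a receptor of vascular endothelial growth factor, ran oppositely in the sections at −0.60 and 1.31 (edgeR adjusted p = 0.559). Of 5 blood genes measured, 4 were called higher in the deep spots by edgeR and 2 by DESeq2. *Hbb-bs* had 43, 1307 and 2729 UMIs in the S1pr2 f/f section and 36, 138 and 217 in the K14-Cre section, with ratios of −6.05 and −2.32 (edgeR adjusted p = 3.47e-09), and *Hba-a2* had 31, 879 and 1778 UMIs in the S1pr2 f/f section and 30, 78 and 100 in the K14-Cre section, with ratios of −5.89 and −1.46. The haemoglobin genes have near-identical copies whose counts cannot be separated. *Ppbp*, a platelet chemokine, had 6, 25 and 32 UMIs in the S1pr2 f/f section and 24, 3 and 0 in the K14-Cre section (edgeR adjusted p = 0.705).

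Of 12 macrophage genes measured, 6 were called higher in the deep spots and none at the surface, with a median of −1.70 in the S1pr2 f/f section and −0.97 in the K14-Cre section. In the K14-Cre section the list made up a larger share of the surface spots in 40 of 110 columns, against 15 of 164 in the S1pr2 f/f section. Its summed log2 ratio there was −2.06 in segment 4 but −0.07 and −0.38 in segments 2 and 3, and in the central columns the K14-Cre median of the 9 genes measured was −0.19. Summed, the list was at 905, 3963 and 3355 CPM in the S1pr2 f/f section and 1710.4, 4118 and 3838 CPM in the K14-Cre section, highest in the middle of both. So were 11 and 8 of its 12 genes. In the S1pr2 f/f section the summed middle level was above the deep level in segments 1 and 3 and below it in segments 2 and 4. *C1qc*, a chain of complement C1q, had 141, 1056 and 693 UMIs in the S1pr2 f/f section and 115, 344 and 414 in the K14-Cre section and ratios of −2.37 and −1.58 (edgeR adjusted p = 0.00116). *Cd163*, the haemoglobin scavenger receptor, was at −2.69 and −0.91 (edgeR adjusted p = 8.48e-04), while *Cd68*, a lysosomal protein of phagocytes, was not called at −1.60 and −0.01 (edgeR adjusted p = 0.235). In the central columns the calls of *C1qc* and *Cd163* were lost. Of 3 mast cell genes measured 1 was called, the chymase gene *Cma1*, which had 6, 187 and 76 UMIs in the S1pr2 f/f section and 9, 25 and 36 in the K14-Cre section and ratios of −3.63 and −1.68 (edgeR adjusted p = 2.38e-05). No gene of the major histocompatibility complex (MHC) class II was called by edgeR or DESeq2, and none had an unadjusted p under 0.05. *Cd74*, the invariant chain, had ratios of −0.16 and 0.32 (edgeR adjusted p = 0.868) and *H2-Ab1* of −0.41 and −0.25, and of 7 antigen presentation genes measured 1 was called, *Epcam*, which marks Langerhans cells but also follicular keratinocytes, at 0.91 and 3.71 (edgeR adjusted p = 1.04e-04). Over all genes tested, 9.25% were called at the surface and 10.2% in the deep spots. Nothing is read from the number of mast cell or antigen presentation genes called. *Cd207*, langerin, had 24, 18 and 15 UMIs in the S1pr2 f/f section and 9, 5 and 7 in the K14-Cre section. Of the melanocyte genes, *Dct*, an enzyme of melanin synthesis, had 13, 138 and 56 UMIs in the S1pr2 f/f section and 34, 18 and 4 in the K14-Cre section and *Mitf*, the melanocyte regulator, 24, 67 and 37 UMIs in the S1pr2 f/f section and 29, 23 and 34 in the K14-Cre section, and neither was called by edgeR or DESeq2 or had an unadjusted p under 0.05.

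T cell and neutrophil genes were sparse. Of 12 T cell genes 4 were measured, and of 11 neutrophil genes 3. In each list 1 gene was called higher at the surface, against 9.25% of all genes tested, and nothing is read from these counts. *Trbc2*, a constant region of the T cell receptor beta chain, was called higher at the surface. It had 108, 74 and 51 UMIs in the S1pr2 f/f section and 54, 6 and 8 in the K14-Cre section, with ratios of 1.00 and 2.94 (edgeR adjusted p = 2.76e-04). *Cd3e* was not called at 0.82 and 1.38 (edgeR adjusted p = 0.0618), and *Trdc*, the constant region of the gamma-delta receptor's delta chain, was at 0.47 and 1.92 (edgeR adjusted p = 0.153). *Cxcr2*, the chemokine receptor of neutrophils that keratinocytes can also express, was higher at the surface, with 65, 43 and 7 UMIs in the S1pr2 f/f section and 37, 7 and 10 in the K14-Cre section and ratios of 3.05 and 2.10 (edgeR adjusted p = 6.32e-06), but the granule and lineage genes *Ly6g*, *Mpo*, *Elane* and *Camp* had at most 14 UMIs in any region. *Csf3r*, the receptor of granulocyte colony-stimulating factor, was at −0.98 and 1.22 (edgeR adjusted p = 0.992).

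Of 6 chemokine genes measured, 2 were called higher in the deep spots, against 10.2% of all genes tested. They were *Ccl11*, eotaxin, at −2.40 and −1.54 and *Cxcl14* at −2.01 and −1.05. Summed, the 11 in the files were at 348, 1721 and 1141 CPM in the S1pr2 f/f section and 611, 1012 and 560.0 CPM in the K14-Cre section. *Cxcl12*, the ligand of CXCR4 made by dermal fibroblasts, had 160, 1509 and 671 UMIs in the S1pr2 f/f section and 78, 174 and 72 in the K14-Cre section. *Cxcl5*, a neutrophil attractant, had 14, 29 and 29 UMIs in the S1pr2 f/f section and 22, 6 and 1 in the K14-Cre section. Of 5 interferon response genes measured, 1 was called higher in the deep spots, against 10.2% of all genes tested, and nothing is read from this count. It was *Ifi27l2a*, at −3.35 and −1.25 (edgeR adjusted p = 2.07e-05). The 9 psoriasis cytokine genes stayed below the minimum and were not tested. *Il17a*, a cytokine of T cells that drives keratinocyte inflammation, had 6, 7 and 1 UMIs in the S1pr2 f/f section and 7, 4 and 0 in the K14-Cre section. *Il17f* had 28, 40 and 14 UMIs in the S1pr2 f/f section and 13, 19 and 1 in the K14-Cre section, *Il23a*, which sustains IL-17-producing cells, 6, 3 and 7 UMIs in the S1pr2 f/f section and 20, 4 and 3 in the K14-Cre section, *Il1b* 18, 43 and 24 UMIs in the S1pr2 f/f section and 6, 7 and 5 in the K14-Cre section, and *Tnf* 7, 20 and 5 UMIs in the S1pr2 f/f section and 5, 7 and 13 in the K14-Cre section. Counts of this size leave wide intervals, and the ratios of *Il17f* were 0.90 (95% interval −0.05 to 1.97) and 3.43 (1.22 to 9.37).

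Genes of sphingosine-1-phosphate (S1P) signalling, the pathway of the deleted receptor, were also set against depth. S1P is made by sphingosine kinases, exported by transporters such as SPNS2 and sensed by 5 receptors. Of 11 genes measured, 2 were called higher at the surface and 1 in the deep spots. Over all genes tested the shares were 9.25% and 10.2%, and nothing is read from counts this close to them. *Spns2*, the exporter, had 356, 203 and 82 UMIs in the S1pr2 f/f section and 47, 15 and 19 in the K14-Cre section and ratios of 2.04 (95% interval 1.69 to 2.41) and 1.54 (0.77 to 2.42) (edgeR adjusted p = 1.79e-04), a call lost in the central columns. *Sphk1*, a sphingosine kinase, was at 0.33 and 2.24 (edgeR adjusted p = 0.0345), a call lost under 6 of the alternatives, and *Sphk2* at 0.31 and 0.30 (edgeR adjusted p = 0.543). *S1pr1*, the receptor of endothelium and lymphocytes, lay deep, with 5, 62 and 56 UMIs in the S1pr2 f/f section and 10, 20 and 28 in the K14-Cre section and ratios of −3.43 (95% interval −5.24 to −2.25) and −1.18 (−2.43 to −0.14) (edgeR adjusted p = 0.00131), not called by DESeq2. *S1pr2* itself was at −1.22 (95% interval −2.08 to −0.45) and −0.02 (−1.48 to 1.38) (edgeR adjusted p = 0.533), *S1pr3* at −0.56 and −0.38, *S1pr4* at 0.66 and 1.00 and *S1pr5* at 1.35 and 1.00. The lyase *Sgpl1* and the phosphatases *Sgpp1* and *Sgpp2*, which break S1P down, were not called, with ratios of 0.14 and −0.04, of 0.45 and 0.62 and of 0.81 and 0.77.

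In the TLR7 pathway, through which IMQ acts, edgeR and DESeq2 called none of 14 genes measured, and an unadjusted p under 0.05 was found for 2 higher at the surface and 2 in the deep spots. Of all genes tested, edgeR called 9.25% and 10.2%. The median was −0.32 in the S1pr2 f/f section and 0.55 in the K14-Cre section, and with TMM 0.02 and 0.37. *Tlr7* had 10, 28 and 23 UMIs in the S1pr2 f/f section and 5, 13 and 21 in the K14-Cre section, with ratios of −1.24 (95% interval −2.51 to −0.15) and −1.71 (−3.57 to −0.36) (edgeR adjusted p = 0.162). The adaptor *Myd88* had 161, 214 and 129 UMIs in the S1pr2 f/f section and 98, 45 and 58 in the K14-Cre section, at 0.24 and 1.01 (edgeR adjusted p = 0.23). The NF-kappaB subunit genes *Nfkb1* and *Rela* were at 0.08 and 1.97 (edgeR adjusted p = 0.0601) and at 0.06 and 1.03 (edgeR adjusted p = 0.321), and in the K14-Cre section both intervals, 1.59 to 2.38 and 0.68 to 1.40, lay above 0. In the S1pr2 f/f section they were −0.22 to 0.38 and −0.25 to 0.36. These intervals cover counting error only, and the difference between the sections has no replicate. The summed background of receptor genes, given below, had ratios of −0.60 and 0.97. Its part in the ratios of *Myd88*, *Nfkb1* and *Rela* was not tested. *Irf7*, the interferon regulator downstream of TLR7, was at −2.84 and −0.48 (edgeR adjusted p = 0.0653).

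For most of the genes called, which differ between the ends by the choice itself, the middle level lay between the ends. Of the 889 genes called at the surface, the middle level was between those of surface and deep spots for 730 in the S1pr2 f/f section and 698 in the K14-Cre section. Of the 981 genes called in the deep spots it was for 727 and 670. The dermal matrix list summed to 6774, 25309.8 and 18159 CPM in the S1pr2 f/f section and 12569, 25917 and 26846 CPM in the K14-Cre section. Of its 17 genes, 16 were highest in the middle of the S1pr2 f/f section and 5 in the middle of the K14-Cre section. Of the 9610 genes, 1457 were highest in the middle of both sections and 1 of them by 2-fold over both ends in both. Segment 1, where the label deep is not borne out, held 1007295 of the 1832966 middle UMIs of the S1pr2 f/f section. A high middle level in that section is therefore not read as a depth by itself. The summed dermal matrix list was higher in the middle than in the deep spots in each of its segments, at 19292 to 27783 against 17021 to 20409 CPM. The 5 genes highest in the middle, among those with at least 100 UMIs at the ends of each section, were *Gda*, *Adamts2*, *Cpxm1*, *Cxcl12* and *Hmox1*. *Adamts2* was at 59.7, 308 and 162 CPM in the S1pr2 f/f section and at 44.8, 189 and 115 CPM in the K14-Cre section. *Adamts2* trims procollagen. *Hmox1* was at 113, 234 and 149.9 CPM in the S1pr2 f/f section and at 126, 201 and 107 CPM in the K14-Cre section. *Hmox1*, haem oxygenase, degrades haem. Their smallest excess of the middle over an end was between 0.64 and 0.77 on the log2 scale.

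**Figure D4:**
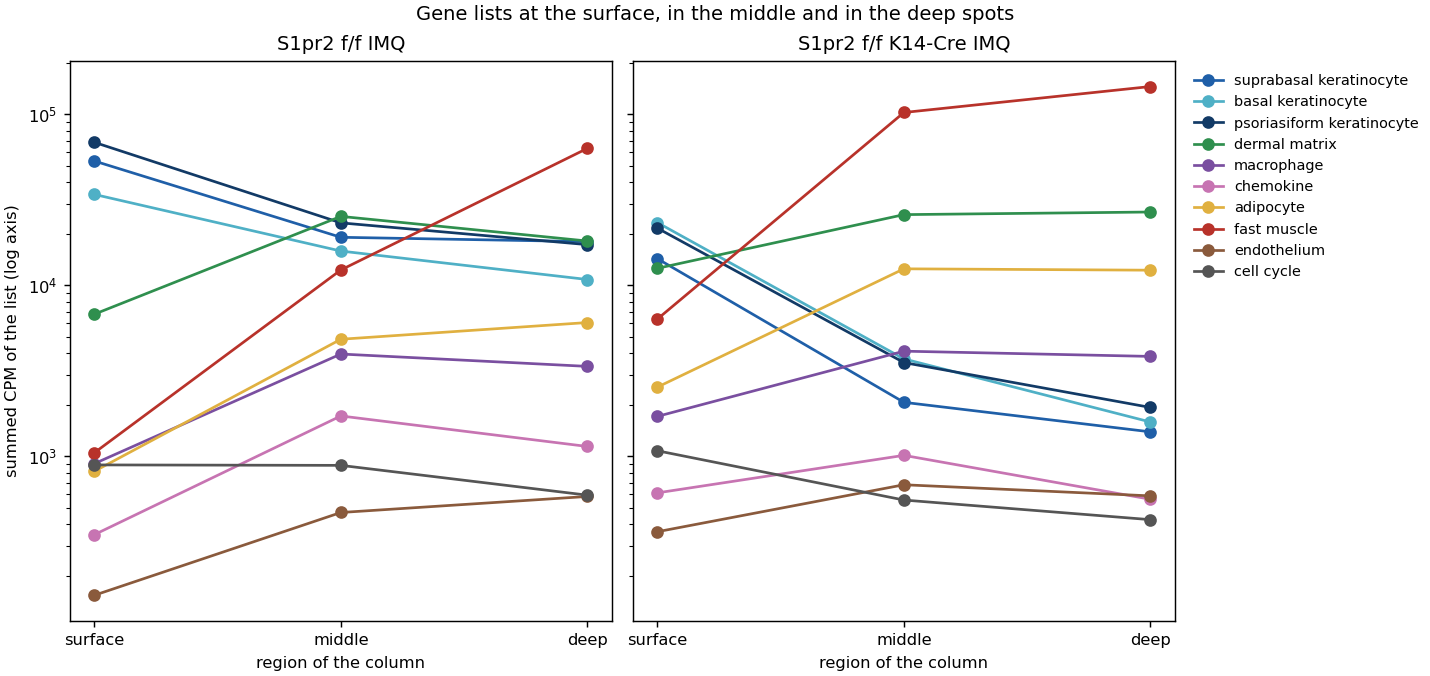
Summed CPM of 10 gene lists (log axis) at the surface, in the middle and in the deep spots of the S1pr2 f/f (left) and the K14-Cre section (right), 1 point per region with no replicate. Keratinocyte lists fall from surface to deep and the fast muscle list rises, to 63287 and 145556 CPM. The chemokine and macrophage lists are highest in the middle of both.

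The sections differed in the size of their gradients, a difference that has no replicate. The summed suprabasal list had a ratio of 1.57 (95% interval 1.55 to 1.59) in the S1pr2 f/f section and 3.37 (3.27 to 3.46) in the K14-Cre section, and a level at the surface of 53380.4 CPM in the former and 14322 CPM in the latter. By segment of the columns, the keratinocyte ratio was 0.81 in segment 1 of the S1pr2 f/f section and 2.24 to 2.63 in the others, and 2.28 against 3.74 to 4.09 in the K14-Cre section. The ratio was thus higher in each segment of the K14-Cre section than in the segment of the same number in the other. Fast muscle ratios were below 0 in every segment, −6.86 to −3.58 and −5.18 to −3.64. The dermal matrix ratio was 0.43 in segment 2 and −2.18 in segment 4 of the K14-Cre section, and −1.70 to −1.04 over the segments of the S1pr2 f/f section. Segments share an animal and are not replicates.

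**Figure D5:**
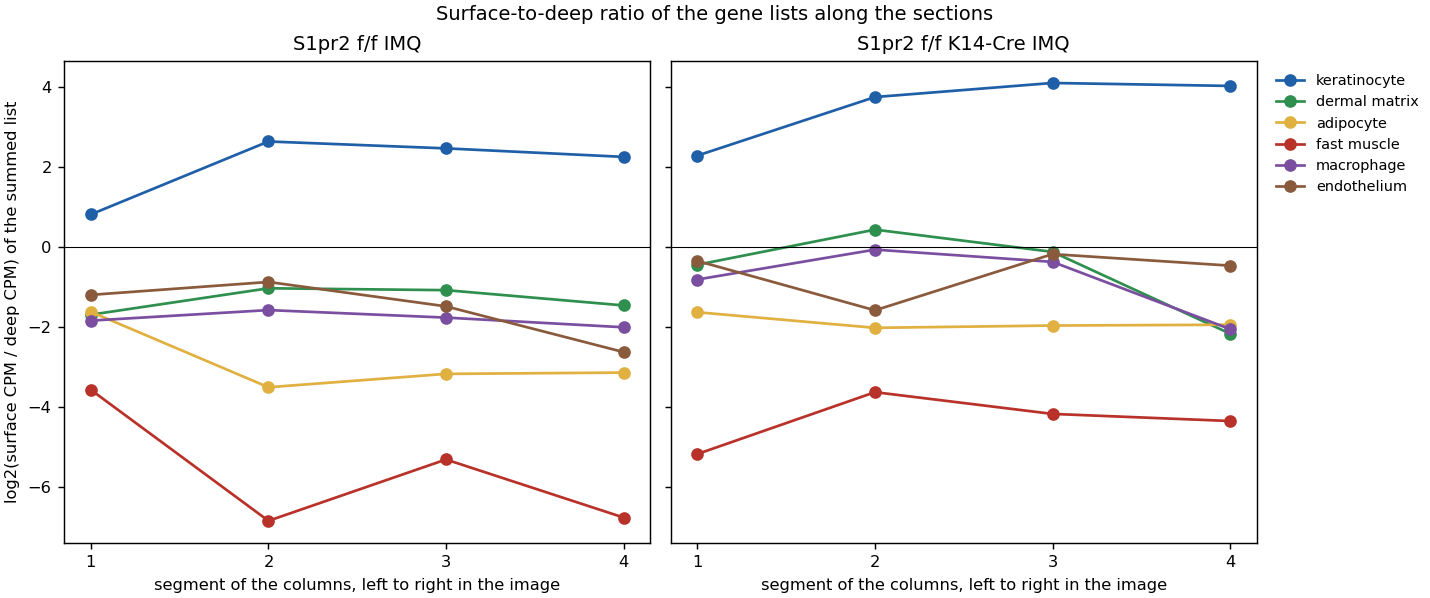
Log2 surface over deep CPM of 6 summed gene lists in 4 segments of the columns, numbered from the left of the image, in the S1pr2 f/f (left) and the K14-Cre section (right), 1 point per segment with no replicate. Keratinocyte ratios are above 0 and fast muscle and adipocyte ratios below 0 in all segments, with the smallest keratinocyte ratio in segment 1, and the dermal matrix ratio of the K14-Cre section crosses 0.

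A few genes ran in opposite directions. Among the 9610 genes, 91 were at least 2-fold higher in the deep spots of the S1pr2 f/f section and at least 2-fold higher at the surface of the K14-Cre section, and 3 the reverse. With at least 100 UMIs in each section, 4 of 2523 remained in the first direction and 0 in the second. *Ctsk*, cathepsin K, a protease of fibroblasts and osteoclasts that degrades collagen, had 432, 2101 and 915 UMIs in the S1pr2 f/f section and 413, 205 and 137 in the K14-Cre section, with ratios of −1.16 (95% interval −1.32 to −0.99) and 1.85 (1.57 to 2.14). *Rarres2*, which encodes the chemoattractant chemerin, had 380, 2196 and 970 UMIs in the S1pr2 f/f section and 312, 405 and 180 in the K14-Cre section, with ratios of −1.42 (95% interval −1.60 to −1.25) and 1.05 (0.78 to 1.33). *Ccl8*, a chemokine of dermal macrophages and fibroblasts, had 169, 885 and 403 UMIs in the S1pr2 f/f section and 136, 166 and 66 in the K14-Cre section, with ratios of −1.33 (95% interval −1.60 to −1.06) and 1.30 (0.87 to 1.75). The fourth, *Mri1*, an enzyme of methionine salvage, was at −1.07 (95% interval −1.56 to −0.60) and 1.33 (0.72 to 2.00). These ratios and counts are without TMM, which moved every ratio by 0.33 and −0.18, here towards 0 in both sections. With it, *Ctsk* and *Mri1* fall short of 2-fold in the S1pr2 f/f section and *Rarres2* in the K14-Cre section. The opposite signs remain. *Ctsk*, *Rarres2* and *Ccl8* were highest in the middle of the S1pr2 f/f section. In the K14-Cre section *Ctsk* and *Mri1* were highest at the surface and the others in the middle. The difference between sections was not tested, since each genotype is 1 section.

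A low background also followed depth, in opposite directions. The 1226 olfactory, vomeronasal, taste and trace amine receptor genes, which skin is not known to express widely, summed to 1854, 3361 and 2802 CPM in the S1pr2 f/f section and to 10377, 6625 and 5314 CPM in the K14-Cre section. The log2 ratio of their sum was −0.60 (95% interval −0.67 to −0.52) and 0.97 (0.91 to 1.02). A single receptor gene had 2.03 and 2.91 UMIs on average at the surface and in the deep spots of the S1pr2 f/f section, and 5.1 and 3.13 in the K14-Cre section. Genes with few UMIs, such as *Il17a*, *Il23a*, *S1pr2*, *Tlr7* and *Gapdh*, are nearest to this level, and its part in their ratios was not tested. When the mean receptor count was taken off every gene, 625 and 1306 genes passed 2-fold at the surface and in the deep spots of both sections.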

How the data were processed

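Formalin-fixed, paraffin-embedded back skin of 1 S1pr2 f/f and 1 S1pr2 f/f K14-Cre mouse was cut at 10 µm and profiled with mouse probes on Visium CytAssist slides. The authors aligned and counted the reads with Space Ranger 3.0.0 on mm10 and deposited raw UMI counts of 19465 genes per spot, which were used unscaled with the deposited spot positions. Probe counts do not depend on gene length. 11 symbols occur more than once and were kept apart by identifier. The sections share 357 spot barcodes, which are positions on the slide.

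UMIs were summed over surface, middle and deep spots of each section. Genes with at least 20 UMIs at both ends together in each section were tested with edgeR 4.0.16 (R 4.3.3), by glmQLFit and glmQLFTest with TMM factors and section as a block, with Benjamini-Hochberg adjustment over all genes tested. The 4 sums leave 1 residual degree of freedom, and the test shares the spread among genes. The p-values thus do not measure how alike the gradients of these sections, which differ in genotype, are for a single gene. Intervals of ratios are conditional binomial. Named genes were the 10 highest at the surface and in the deep spots by the smaller of both ratios, up to 5 most opposed in each direction and 5 highest in the middle, all with at least 100 UMIs in each section, and members of 31 gene lists, of which 2 genes are not reported here. The members and lists were chosen with earlier results of these data known. Alternatives were 1 spot at each end, columns of at least 8 spots, connected spots, spots of at least 500 UMIs, 10% of the columns trimmed at either end, other minimums, pseudocounts, folds and scalings, DESeq2 1.42.0 and each section alone. The central columns (25% left out at either end) and columns without a gap were added after the data had been seen. No genome sequence was used here, and promoters came from RefSeq's table of GRCm38.p6.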

Additional observations from a re-analysis of the deposited data

Results flagged for a closer look

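The sections ran oppositely in 4 genes with at least 100 UMIs, deep in the S1pr2 f/f section and at the surface of the K14-Cre section. The log2 ratio of surface over deep differed between them, K14-Cre minus S1pr2 f/f, by 3.004 for *Ctsk*, 2.62 for *Ccl8*, 2.48 for *Rarres2* and 2.40 for *Mri1*. These differences are without TMM, which moved every ratio by 0.33 in the S1pr2 f/f and −0.18 in the K14-Cre section and makes them smaller. The summed olfactory, vomeronasal, taste and trace amine receptor genes also ran oppositely, with a difference of 1.56. None of these differences was tested, since each genotype is 1 section.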

How the results depend on the processing

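With 1 section per genotype and 1 residual degree of freedom, calls rest largely on a spread shared among genes. Genes with few UMIs were not detectable as changed at this depth. Surface and deep spots were paired within each section by the section block of the test. Across genotypes, no paired analysis was possible because each genotype has 1 section.

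The main test called 889 genes at the surface and 981 in the deep spots, of 9610 tested. With 1 spot at each end, edgeR called 511 at the surface, of 5509 tested. In columns of at least 8 spots it called 6 and 25 of 258, and in the central columns 209 and 298 of 4754. At the surface it called 588 of 8485 in columns without a gap and 545 of 9610 without TMM. With at least 100 UMIs in each section it called 318 and 453 of 2523. Since most alternatives tested fewer genes, a lower count is not by itself a lost gradient. DESeq2 called 471 and 503, with 932 adjusted p missing. Of the genes called and tested again, 483 of 703 at the surface and 575 of 724 in the deep spots were called with 1 spot at each end, and 206 of 483 and 297 of 723 in the central columns. No gene was called in the opposite direction under any alternative run. Of 190 named genes followed, none reversed its edgeR direction. Since 182 of them were called in the main test, this covers few genes without a clear gradient. The largest number that lost its call was 56, in the central columns, with 90 unchanged. In columns of at least 8 spots the number was 26, with 24 unchanged.

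The 2-fold counts in both sections, 549 and 981, became 31 and 44 in columns of at least 8 spots, 206 and 363 with at least 100 UMIs, 36 and 316 at 4-fold and 596 for the deep spots in the central columns. For each choice of columns or minimum, the genes tested numbered as given above. In 1 section alone they ranged from 681 to 2096 at the surface and from 1528 to 2233 in the deep spots.

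Of 268 values of list medians, averaged over both sections, 36 moved by more than 1 SD between the sections and 1 more was counted as reversed. Values near 0 also changed sign without being counted so. Antigen presentation, at −0.16, did so in the trimmed and the central columns, and the TLR7 pathway, at 0.12, turned to −0.011 with connected spots. The SD is that of 2 sections of different genotype and is no measure of robustness. With 1 spot at each end the sebaceous list, at 1.43, turned to −1.40 over the 3 genes left, cell cycle stood at 0.96, dermal matrix at −2.35, fascia at −1.83, adipocyte at −3.93, smooth muscle at −3.60, macrophage at −2.20, Schwann cell at −2.88, interferon response at −2.13 and oxidative phosphorylation at −1.03. In columns of at least 8 spots dermal matrix stood at −0.98, oxidative phosphorylation at −0.099 and glycolysis at −0.017. In the central columns cornified envelope stood at 3.22, suprabasal at 3.30, cell cycle at 1.55, dermal matrix at −0.67, antigen presentation at 0.28 and glycolysis at −0.62. With the outermost columns trimmed cell cycle stood at 0.99, dermal matrix at −0.98, antigen presentation at 0.20, T cell at 2.16, Schwann cell at −1.50 and S1P at 0.78. Dermal matrix stood at −1.22 with spots of at least 500 UMIs, and in columns without a gap it was −1.47 and interferon response −0.74. By the mean over spots of CPM, dermal matrix stood at −1.06, fascia at −1.59, mast cell at −3.10, Schwann cell at −1.70 and interferon response at −1.34. With the mean count of a receptor gene taken off, fascia stood at −1.60, mast cell at −1.67, Schwann cell at −1.51 and interferon response at −1.29. The receptor difference of 1.56 became 1.98 with 1 spot at each end, 1.40 in columns of at least 8 spots, 1.73 with the outermost columns trimmed, 2.14 in the central columns, 1.39 without gaps and 1.05 with TMM. In the K14-Cre section alone, the median of the cell cycle list was 0.77 and in the central columns 2.39, that of the basal list 2.60 and 4.41, and that of smooth muscle −1.82 and, with 1 spot at each end, −3.95. The cause of these shifts was not tested.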
